A study of Cricetiscus sungorus with 216 samples.

Results

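The genes described here are the writers and erasers of DNA methylation in the Djungarian hamster, measured in the pituitary gland and in 3 hypothalamic tissues over a circannual cycle. They are the DNA methyltransferases Dnmt1, Dnmt3a and Dnmt3b and the ten-eleven translocation dioxygenases Tet1, Tet2 and Tet3. They were taken by gene symbol alone, and are 6 of the 32078 gene symbols in the 4 deposited tables. The tables of the mediobasal hypothalamus (MBH) and the pituitary gland had rows for all 6. The tables of the paraventricular nucleus (PVN) and the dorsomedial hypothalamus (DMH) had rows for 5, without Dnmt3b.

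Adult male hamsters of a laboratory colony, with no genetic alteration named, were kept in long photoperiod (LP, labelled LD) or moved to short photoperiod (SP, labelled SD). The LP group and each of the 8 SP groups, taken after 4, 8, 12, 16, 20, 24, 28 and 32 weeks, held 6 hamsters. Each of the 54 hamsters gave a library from dissected pituitary gland, MBH, PVN and DMH, so that 54 libraries per tissue were sequenced as full-length cDNA by nanopore. Weeks 4 and 8 are called induction here, weeks 12 to 20 maintenance and weeks 24 to 32 recovery, after the phases the study names. There was 1 LP group for all weeks, so that weeks spent in SP and age or calendar time cannot be told apart. Libraries of a group came from separate hamsters, and the spread between them includes both the animals and the library preparation.

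Methylation of cytosine in CpG dinucleotides is laid down by the de novo enzymes Dnmt3a and Dnmt3b and copied onto the new strand after replication by Dnmt1, the maintenance enzyme. The Tet enzymes oxidise methylated cytosine to hydroxymethylcytosine and further, using oxygen and 2-oxoglutarate, and base excision repair can then restore the unmodified base. In adult brain, where most neurons no longer divide, Dnmt1 and Dnmt3a both remain expressed, and hydroxymethylcytosine is more abundant than in most other tissues.

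Library depth differed widely. The total of the expected counts, summed over the isoform rows of each symbol, was 5996 to 13208361 per library in the MBH, 149289 to 9084072 in the DMH, 29219 to 523544 in the pituitary gland and 159 to 998245 in the PVN. In the DMH 1 symbol, Gm32262, took 13.5 to 69.1% of the counts of a library, with a median of 40.1%, and 9 of its 54 libraries held fewer than 3000 symbols with a count. The tissue labels were checked against markers. Endocrine pituitary genes summed to between 30100 and 128000 CPM (counts scaled to a common library size) in the pituitary gland. The PVN table had no row for Avp, Oxt or Crh, the peptide genes that define that nucleus, though it had Sim1 and Trh. Summed neuronal markers reached 0 in single DMH libraries, and dorsomedial markers as a list did not set the DMH apart from the MBH (values below). In bulk tissue, fewer cells of a type and less RNA per cell cannot be told apart.

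All members were read thinly, and the erasers in fewer libraries than Dnmt1 and Dnmt3a in each hypothalamic tissue. In the MBH, Dnmt3a had a count in 52 of 54 libraries and Dnmt1 in 49, against 43 for Tet3, 38 for Tet2 and 30 for Tet1. In the PVN the numbers were 45 for Dnmt3a, 43 for Dnmt1, 31 for Tet3, 28 for Tet2 and 14 for Tet1. In the DMH they were 37 for Dnmt3a, 27 for Dnmt1, 18 for Tet3, 17 for Tet2 and 7 for Tet1. In the pituitary gland, with the smallest median depth, no member was read in more than 27 libraries (Dnmt3a), and Tet2 was read in 12. Dnmt3a was thus the member read in the most libraries in each of the 4 tissues, and at least 1 member went unread in all but 2 of the 54 MBH libraries. No member was read in 1 MBH, 9 pituitary, 3 PVN and 11 DMH libraries. These numbers follow depth as well as expression, since Tet1 was read in 10 of the 27 shallower and 20 of the 27 deeper MBH libraries, and Dnmt1 in 16 and 27 of those of the PVN. Gene lengths were not used, so levels are compared within a gene and not between genes.

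**Figure D1:**
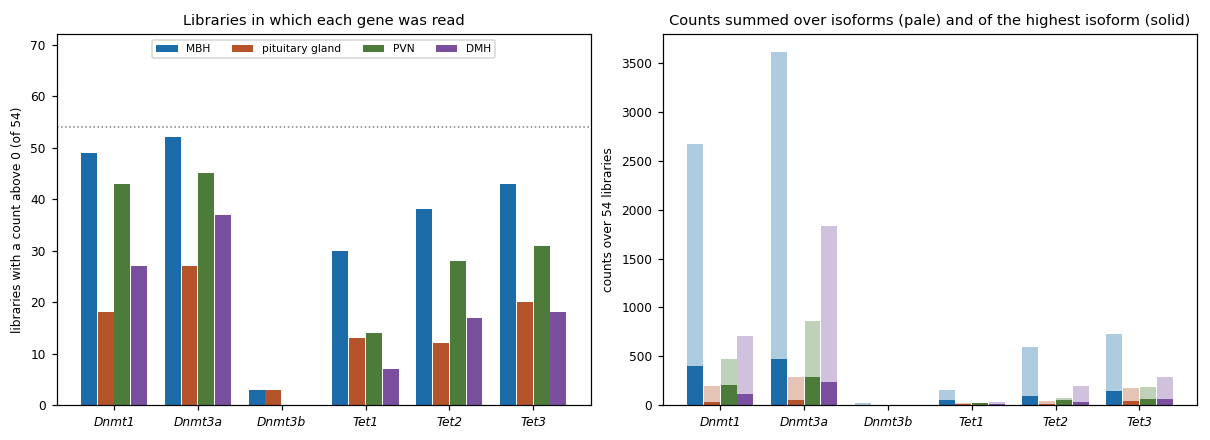
Left, number of libraries (of 54 per tissue, dotted line) in which each gene had a count above 0, with 1 bar per tissue. Right, counts over the 54 libraries, with all isoform rows summed in pale bars and the highest isoform row of each library in solid bars: MBH Dnmt3a stands at 3616 counts when summed and 472 by its highest rows.

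The counts behind these numbers were fewer than the tables make them look. The 7 isoform rows of Dnmt1 held the same value in 22 of the 49 MBH libraries that read it, and those of Tet3 in 39 of 43. Summed over rows, Dnmt1 had 2679 counts over the 54 MBH libraries, which was 6.71 times what the highest row of each library gave. Dnmt3a had 3616 counts when summed and 472 by the highest rows, Tet3 724 and 148, Tet2 592 and 91, and Tet1 154 and 52. In the pituitary gland the highest rows gave 50 counts for Dnmt3a, 43 for Tet3, 32 for Dnmt1, 14 for Tet1 and 13 for Tet2 over all 54 libraries. Values below are CPM of the summed rows after TMM scaling, and tests were edgeR quasi-likelihood tests with Benjamini-Hochberg adjustment over all symbols of a tissue (FDR), called below 0.1.

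In the MBH, Dnmt1 stood lowest in LP and higher in each of the 8 SP groups by the median. In LP the 6 hamsters had 0, 8.92, 12.2, 12.2, 16.2 and 22.8 CPM. The group medians were 16.4 CPM after 4 weeks and 31.7 CPM after 8 weeks of SP in induction, then 41.3 (week 12), 25.6 (week 16) and 40.5 CPM (week 20) in maintenance. In recovery they were 18.3, 22.3 and 24.4 CPM after 24, 28 and 32 weeks. Of the 48 SP libraries, 27 were above the highest LP library. Each SP group nevertheless overlapped LP, and ranges overlapped between all neighbours in the order of medians. Dnmt1 was at 0 in 5 libraries, 1 of LP, 1 of induction, 2 of maintenance and 1 of recovery, all of them among the 27 shallower MBH libraries.

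By phase, Dnmt1 averaged 12.0 ± 7.59 CPM in LP (SD, n = 6), 23.9 ± 16.9 in induction (n = 12), 30.8 ± 17.6 in maintenance (n = 18) and 24.4 ± 12.8 in recovery (n = 18). The log2 fold change over LP was +0.87 ± 0.49 (SE) in induction (FDR = 0.925), +1.37 ± 0.48 in maintenance (unadjusted p = 0.00626, FDR = 0.43) and +1.00 ± 0.47 in recovery (unadjusted p = 0.0377, FDR = 0.895). None passed the threshold over all symbols. Exact permutation tests of the mean CPM, two-sided and unadjusted, gave p = 0.124, 0.0208 and 0.0369 in that order. They belong to 66 such tests of members and phases over the 4 tissues, of which 3 had p under 0.05, and the smallest adjusted over the 66 was 0.686. Against LP, 4 single weeks of Dnmt1 had an exact p under 0.05: 0.0281 at 12 weeks, 0.013 at 16, 0.0433 at 28 and 0.0108 at 32. Those were the only 4 of 176 single-week tests under 0.05, the smallest p possible was 0.00216 and the smallest adjusted value was 1. Counting the highest isoform row alone, Dnmt1 pooled over libraries stood at 8.48 CPM in LP, 10.2 in induction, 16.0 in maintenance and 11.1 in recovery. By this measure week 4 (8.26 CPM) and week 28 (7.67 CPM) lay below LP, so that not all 8 SP groups stood above it.

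Other genes moved in the same MBH libraries. Summed endocrine pituitary markers, of which Cga and Tshb are transcribed in the adjoining pars tuberalis, ranged from 763 to 2340 CPM in LP and from 15.3 to 476 CPM in maintenance. Summed oligodendrocyte markers had medians of 1100 CPM in LP and 560 CPM in maintenance. Markers of dividing cells, in which Dnmt1 is most abundant, had medians of 31 CPM (17.5 to 61.1) in LP and 35.5 CPM (0 to 68.4) in maintenance. The part of these cells in the Dnmt1 values was not tested.

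**Figure D2:**
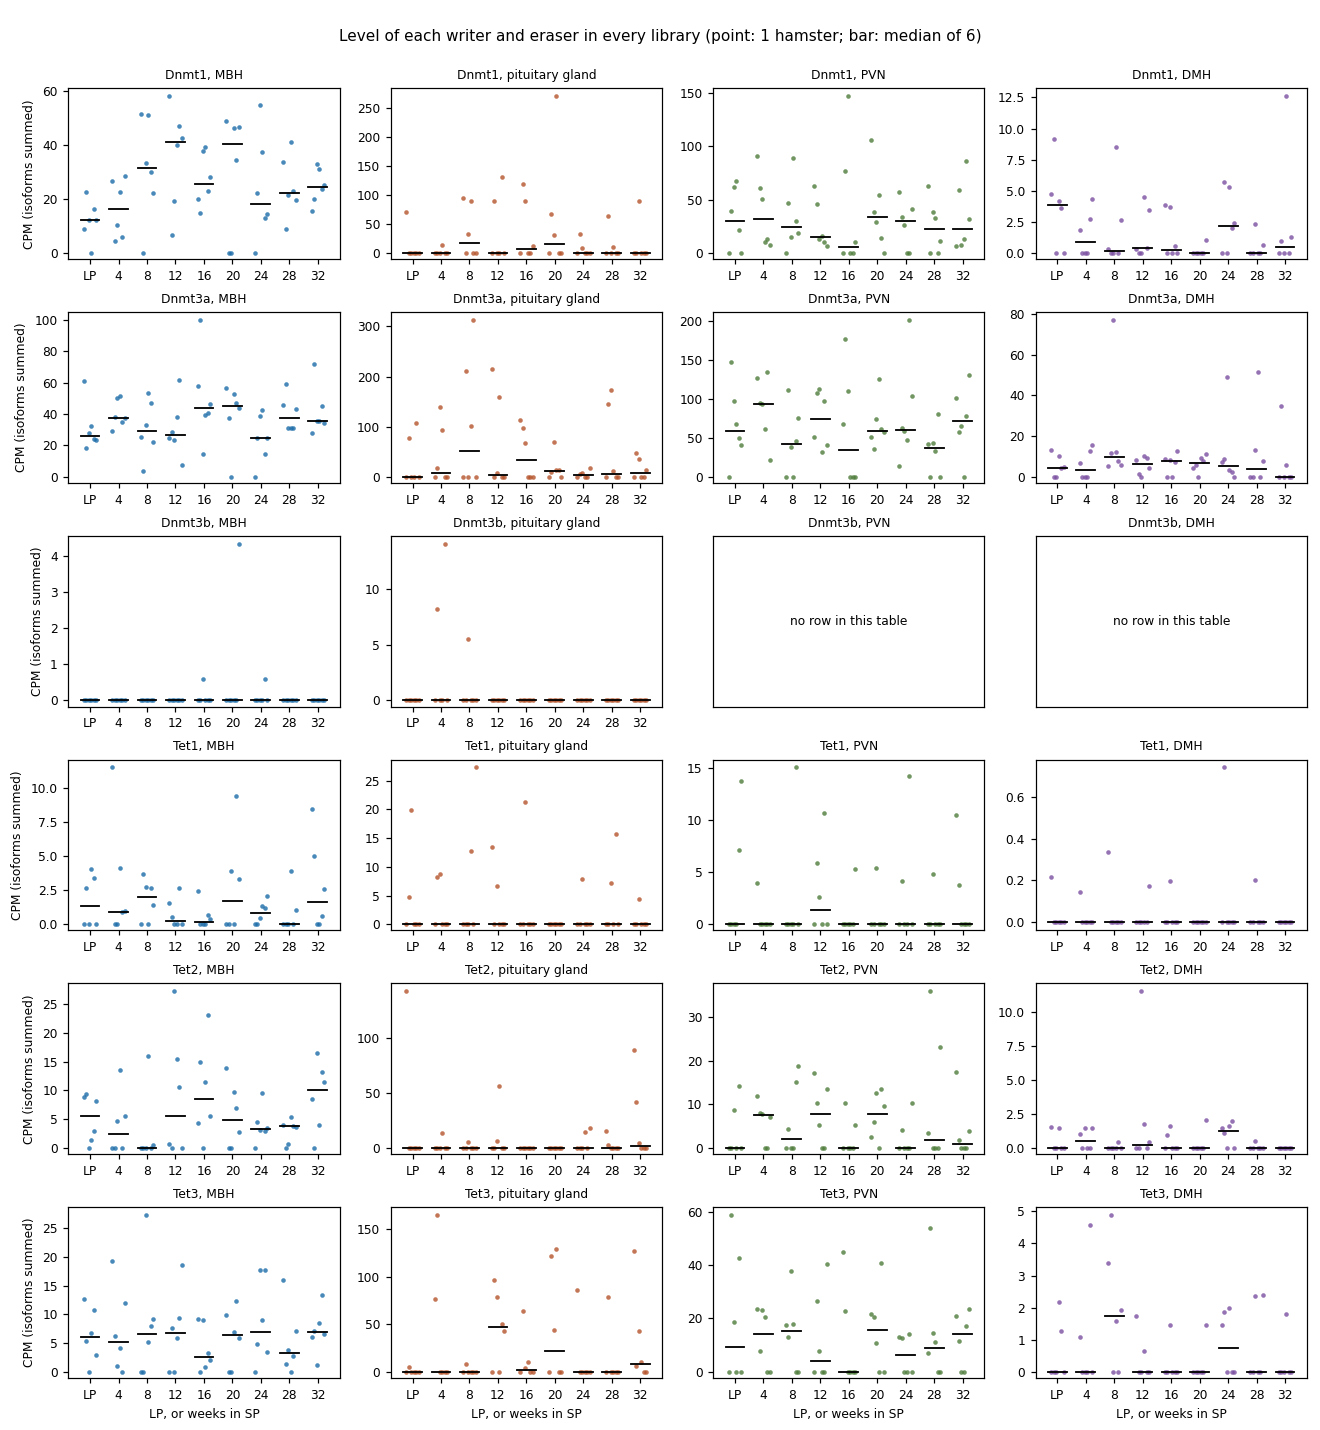
CPM of each gene (rows) in each tissue (columns) by group, with 1 point per hamster and a bar at the median of 6; each panel has its own linear axis. MBH Dnmt1 has its lowest median in LP (12.2 CPM) and its highest at 12 weeks (41.3 CPM), while most panels of the erasers and of the pituitary gland rest on a few libraries above 0.

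Dnmt3a, the main de novo enzyme of adult brain, had the smallest standard errors of the 6 members in the MBH among those that could be estimated. It had a median of 25.8 CPM in LP (18.6 to 61.1) and group medians from 24.5 CPM at 24 weeks to 45.4 CPM at 20 weeks, 7 of 8 above that of LP, but only 3 of 48 SP libraries exceeded the highest LP library. Its log2 fold changes were +0.23 ± 0.38, +0.38 ± 0.36 and +0.22 ± 0.36 in induction, maintenance and recovery (FDR = 1 in each). Dnmt3b, which acts mainly in the early embryo, had 1 count in its highest row in 3 libraries, at 16, 20 and 24 weeks, and none in LP, where a count of 0 allowed up to 0.285 CPM over the 6 libraries. This limit covers counting error only.

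The erasers in the MBH gave no called difference from LP. Tet2 had a median of 5.55 CPM in LP (0 to 9.29), 0 at 8 weeks (0 to 16.0) and 9.96 at 32 weeks (0 to 16.5), and 14 of 48 SP libraries lay above the highest LP library. Its log2 fold changes were -0.48 ± 0.85, +0.68 ± 0.83 and -0.07 ± 0.78 over the 3 phases. Tet3, with medians from 2.64 CPM at 16 weeks to 6.90 at 24 weeks around 6.01 in LP, gave +0.30 ± 0.73, -0.05 ± 0.69 and +0.21 ± 0.69. Tet1 had a median of 1.33 CPM in LP, where 3 of 6 libraries read it, and gave +0.17 ± 0.98, -0.46 ± 0.86 and -0.41 ± 0.86. For each of the 3 erasers the FDR was 1 in every phase. The standard errors show what these libraries could resolve: a change of 1 log2 unit in Dnmt3a spans more than 2 standard errors, while in an eraser it spans little more than 1.

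Across the 9 MBH groups together, no member was called by edgeR, against 0.442% of all 20156 symbols. The called shares of all symbols were 0.0447% in induction, 0.203% in maintenance and 0.169% in recovery, again with 0 members. At single weeks they were 0.0198% (week 8), 0.0149% (week 16), 0.00992% (weeks 4 and 12) and 0.00496% (from week 20 on), also with 0 members. At an unadjusted p under 0.05 there was 1 member over the 9 groups (Dnmt3b), 1 over the phases (Dnmt1) and 2 at single weeks, and DESeq2 called none. A 32-week harmonic was called for 1 member, Dnmt3b (FDR = 1.6e-05), where 1.71% of all symbols were called. That call rests on the 3 libraries with 1 count each, in 1 of which all 22 isoform rows held that count. It was lost when 1 row per gene was counted (FDR = 0.641 with the row of the highest total) and without replicate 6 (FDR = 0.835). For Dnmt1 the harmonic had FDR = 0.631.

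**Figure D3:**
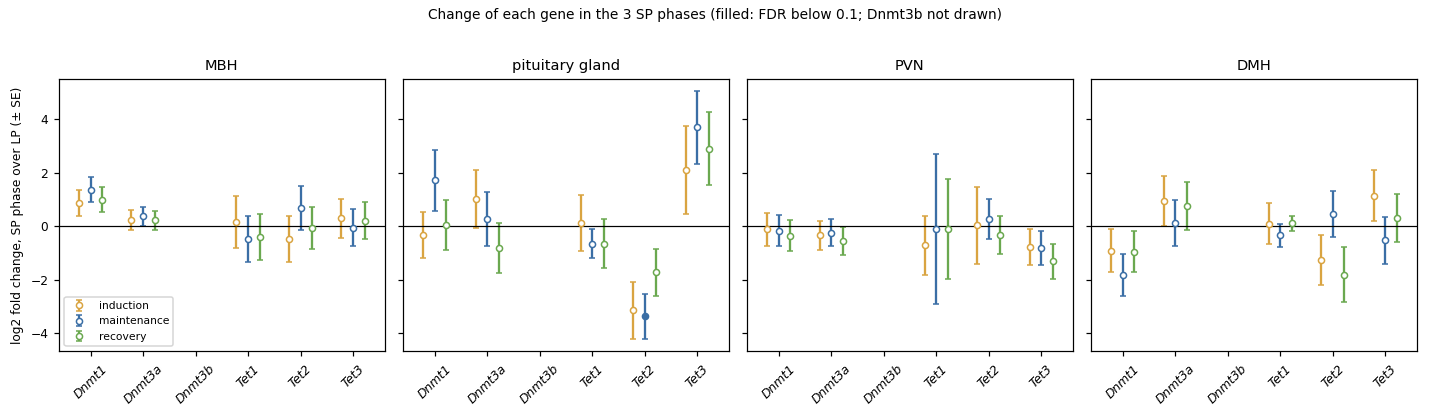
Log2 fold change of each gene in induction, maintenance and recovery over LP, with standard errors, in the 4 tissues; filled symbols have FDR below 0.1, and Dnmt3b is not drawn. The 1 filled point is pituitary Tet2 in maintenance (-3.37), and MBH Dnmt1 lies above 0 in the 3 phases (+0.87, +1.37 and +1.00).

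In the pituitary gland, Tet2 was the only member called over the 9 groups (FDR = 0.0313), in a table where 9.56% of all symbols were called. It was read in 12 libraries: 1 of 6 in LP, 2 of 12 in induction, 2 of 18 in maintenance and 7 of 18 in recovery. The LP library, replicate 1, held 142 CPM from 2 counts in each of the 7 isoform rows. The maintenance libraries held 6.58 and 56.1 CPM from 1 count in the highest row. In maintenance the log2 fold change was -3.37 ± 0.85 (FDR = 0.0507, with 0.44% of all symbols called), while the exact permutation test of the means gave p = 0.25. Without replicate 1 of every group it turned to +1.22, and with the highest isoform row of each library the FDR was 0.84. The called difference therefore depended on 1 LP library.

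Tet3 had the opposite layout in the pituitary gland. In LP 1 of 6 libraries read it, at 4.80 CPM, against 10 of 18 in maintenance, with a median of 7.19 CPM and a highest value of 129 CPM. At 12 weeks the 4 libraries that read it held 42.4, 50.7, 79.0 and 96.2 CPM, all above the LP library, and at 20 weeks 3 libraries held 44, 122 and 129 CPM. In maintenance the log2 fold change was +3.70 ± 1.36 (unadjusted p = 0.00811, FDR = 0.418, exact permutation p = 0.0788), and over the 9 groups the FDR was 0.176. By highest row the counts were 1 in LP and 23 in maintenance, or 3.33 and 18.7 CPM when pooled. Over the alternatives Tet3 passed the threshold across the 9 groups with the quasi-likelihood fit of edgeR 4 (FDR = 0.00464), with a replicate block (FDR = 0.000115), and without replicate 1 (FDR = 0.0256) or 2 (FDR = 0.00427). It was not called with DESeq2, nor with the highest isoform row of each library or the row of the highest total. After low counts were filtered out no member was called, but that filter removes thinly read genes before testing. It is therefore not a failed test of each member. In the main fit 9.56% of all symbols were called over the 9 groups, and from 2 to 2531 of 22482 symbols across the alternatives. Of all 48 SP libraries, 18 exceeded the LP maximum. Over the same libraries summed neuronal markers had medians of 268 CPM in LP and 749 CPM in maintenance, and their part in the Tet3 values was not tested.

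The writers in the pituitary gland gave no phase call. Dnmt1 was read in 1 of 6 LP libraries (71.1 CPM) and in 8 of 18 in maintenance (up to 271 CPM), with a log2 fold change of +1.72 ± 1.14 (FDR = 0.88), which lay between +0.96 without replicate 2 and +5.65 without replicate 1. Dnmt3a was read in 2 of 6 LP libraries and 25 of 48 SP libraries, with changes of +1.02 ± 1.08, +0.27 ± 1.01 and -0.80 ± 0.94 over the phases. Tet1, read in 13 libraries at up to 27.3 CPM, gave +0.12 ± 1.05, -0.65 ± 0.54 and -0.66 ± 0.92. Called shares of all symbols were 0.0845% in induction, 0.623% in recovery and 0 to 0.00445% at single weeks, with 0 members in each. At an unadjusted p under 0.05 there was 1 member in induction and 1 in recovery and 2 at single weeks, and DESeq2 called none of the members in any of these. The 32-week harmonic was called for Dnmt3b (FDR = 0.0877, where 5.7% of all symbols were called), on 3 counts: 8.27 and 14.1 CPM at 4 weeks and 5.54 CPM at 8 weeks.

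**Figure D4:**
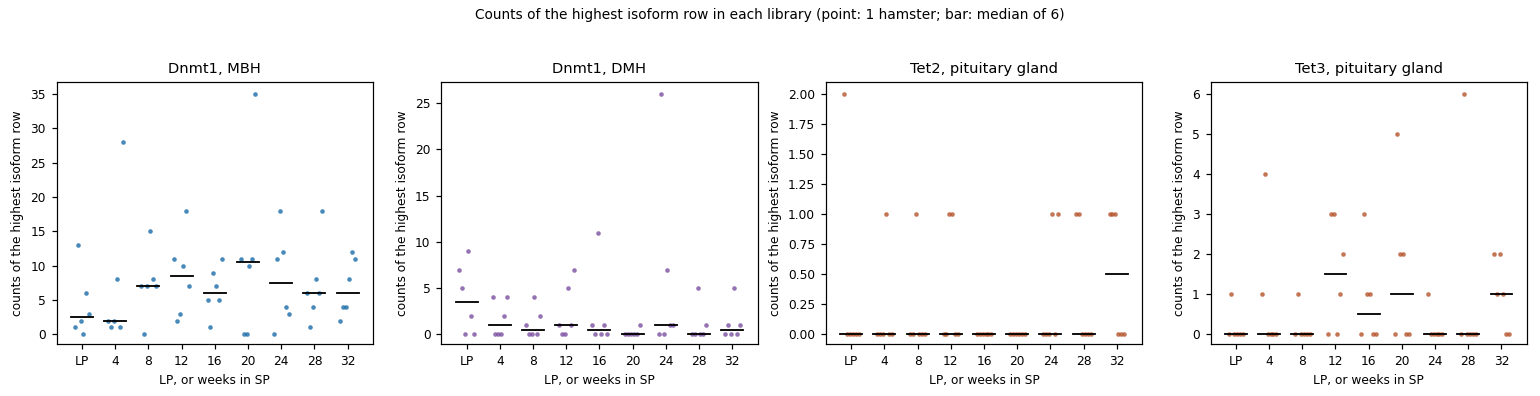
Counts of the highest isoform row in each library by group for Dnmt1 in the MBH and DMH and Tet2 and Tet3 in the pituitary gland, with 1 point per hamster and a bar at the median of 6, on linear axes. MBH Dnmt1 reaches 35 counts in a library, pituitary Tet2 at most 2 and pituitary Tet3 at most 6.

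In the PVN no member differed from LP in any test. Its table follows another set of isoform rows, with 4 for Dnmt1 and for Dnmt3a, so its levels are not set beside those of the other tissues. Dnmt1 had a median of 30.3 CPM in LP (0 to 67.1) and group medians from 5.30 CPM at 16 weeks to 33.8 CPM at 20 weeks. Dnmt3a had a median of 58.4 CPM in LP (0 to 147) and from 33.8 CPM at 16 weeks to 93.9 CPM at 4 weeks. Their log2 fold changes lay between -0.12 and -0.55, with standard errors of 0.51 to 0.61 and FDR = 1. Tet3 gave the largest change, -1.31 ± 0.65 in recovery (unadjusted p = 0.048, FDR = 1, exact permutation p = 0.283), from 9.28 CPM (0 to 58.9) in LP to 11.2 CPM (0 to 53.9) by the median, so that medians and means pointed in opposite directions. Tet2 gave +0.03 ± 1.43, +0.28 ± 0.75 and -0.33 ± 0.71, and Tet1 was read in 14 libraries. Called shares of all 18960 symbols were 0.0158% over the 9 groups, 0% in induction, 0.0158% in maintenance, 0.00527% in recovery, 0.538% for the harmonic and 0% at each single week, with 0 members in each. Tet3 in recovery was the only phase result of a member at an unadjusted p under 0.05, with 1 more at a single week, also Tet3 at 24 weeks, and DESeq2 called none.

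In the DMH, Dnmt1 had its highest median in LP, the reverse of its order in the MBH. The LP hamsters had 0, 0, 3.58, 4.14, 4.78 and 9.18 CPM, with a mean of 3.61 ± 3.43 (SD, n = 6). The medians of the 8 SP groups all lay below that of LP, from 0 CPM at 20 and 28 weeks to 2.19 CPM at 24 weeks, and 1 of 48 SP libraries exceeded the highest LP library. In maintenance 8 of 18 libraries read it, with a mean of 0.988 ± 1.62 CPM and a highest value of 4.46 CPM. The log2 fold change was -1.83 ± 0.78 (unadjusted p = 0.0232, FDR = 0.394, exact permutation p = 0.016), not called, and it lay between -3.34 and -1.24 over the alternatives. In induction and recovery it was -0.91 ± 0.82 and -0.95 ± 0.76. The median over all DMH symbols was -0.17, -0.26 and -0.26 in the 3 phases. Without the 9 libraries of fewer than 3000 symbols, a choice made after seeing the data, it was -1.87 in maintenance (FDR = 0.559). Summed neuronal markers ranged from 335 to 851 CPM in LP and from 0 to 858 CPM in maintenance, with medians of 650 and 262 CPM, and those of dividing cells had medians of 4.80 and 0.475 CPM. Their part in the Dnmt1 values was not tested.

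The other DMH members gave no direction that held. Dnmt3a had a median of 4.36 CPM in LP (0 to 13), 9.64 CPM at 8 weeks (5.41 to 77.2) and 0 at 32 weeks (0 to 34.8), and its changes were +0.95 ± 0.94, +0.14 ± 0.86 and +0.76 ± 0.89. The 77.2 and 34.8 CPM rest on 3 and 5 counts in the highest isoform row. Tet3 gave +1.15 ± 0.94, -0.52 ± 0.88 and +0.32 ± 0.89, and Tet2 -1.27 ± 0.93, +0.45 ± 0.86 and -1.81 ± 1.04. Tet1 was read in 7 libraries and never above 0.741 CPM. Called shares of all 21821 symbols were 4.62% over the 9 groups, 0.669% in induction, 0.898% in maintenance, 0.293% in recovery, 3.07% for the harmonic and, at single weeks, 0% up to week 16, 0.00458% at weeks 20, 24 and 32 and 0.0183% at week 28, with 0 members in each. At an unadjusted p under 0.05 there was 1 member over the 9 groups (Tet2, FDR = 0.306), 1 over the phases (Dnmt1) and 2 at single weeks, and DESeq2 called none.

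Because each hamster gave both tissues, MBH and DMH could be compared within animals, over the 84377 isoform rows and 17693 symbols that the tables share and with TMM scaling over both tissues, which puts the CPM of this comparison on another scale than above. On that scale Dnmt1 had medians of 10.3 CPM in the MBH and 0.430 CPM in the DMH, and means of 11.1 ± 6.98 and 4.45 ± 6.79 (SD, n = 54). It was higher in the MBH in 40 hamsters, higher in the DMH in 10 and equal in 4. The log2 difference, DMH minus MBH, was -1.78 ± 0.33 (FDR = 1.25e-06). By libraries, 26 hamsters had Dnmt1 read in both tissues, 23 in the MBH only, 1 in the DMH only and 4 in neither.

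The erasers were called lower in the DMH as well, Tet2 and Tet3 not under each alternative. Tet1 differed by -2.04 ± 0.59 (FDR = 0.00229, higher in the MBH in 30 hamsters and in the DMH in 6), Tet2 by -1.34 ± 0.46 (FDR = 0.0122, 28 and 15 hamsters) and Tet3 by -1.11 ± 0.38 (FDR = 0.058, 34 and 14 hamsters). Dnmt3a was the member not called, with -0.29 ± 0.30 (FDR = 0.546), medians of 15.4 and 14.8 CPM, and 26 hamsters higher in the MBH against 27 in the DMH. The call for Tet1 stood in 14 of 14 alternatives, that for Tet2 in 10 and that for Tet3 in 9. With the isoform row of the highest total, Tet2 was at -0.76 (FDR = 0.18) and Tet3 at -0.38 (FDR = 0.47), and without the hamster as a block Tet3 was at -0.41 (FDR = 0.409). Tet2 also lost its call without replicate 4 (-0.96, FDR = 0.261), with edgeR 4 (FDR = 0.112) and without hamsters that had a library of fewer than 3000 symbols (FDR = 0.111). Tet3 also lost its call without replicate 1 (-0.92, FDR = 0.248), with edgeR 4 (FDR = 0.106) and without hamsters that had a library under 10000 counts (FDR = 0.102). The sign of the Dnmt3a difference turned with the isoform row of the highest total (+0.36) and without the hamster as a block (+0.35), and without TMM scaling Dnmt3a was called at -2.70. So 4 of the 5 members were called lower in the DMH, where 43.8% of all symbols were called lower and 45% were called in either direction. On simulated counts this fit also put unchanged symbols below 0 and called some of them, so a negative difference here is not by itself a lower level in the DMH. The median of all symbols was -0.74, and relative to it the differences were -1.04 for Dnmt1, -1.30 for Tet1, -0.60 for Tet2, -0.37 for Tet3 and +0.45 for Dnmt3a. Relative to the median of the same fit, Tet3 stood at +0.04 with the row of the highest total and at +0.12 without the hamster as a block. Summed neuronal markers, on the same scale, had medians of 1470 CPM in the MBH and 777 CPM in the DMH, and 7 of 8 were called lower in the DMH, while 5 of 8 oligodendrocyte markers were called higher there. Of 6 dorsomedial markers, 2 were called higher in the DMH and 3 higher in the MBH, with a median of -0.80. Of the mediobasal markers, 4 were in both tables, and all 4 were called higher in the MBH.

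**Figure D5:**
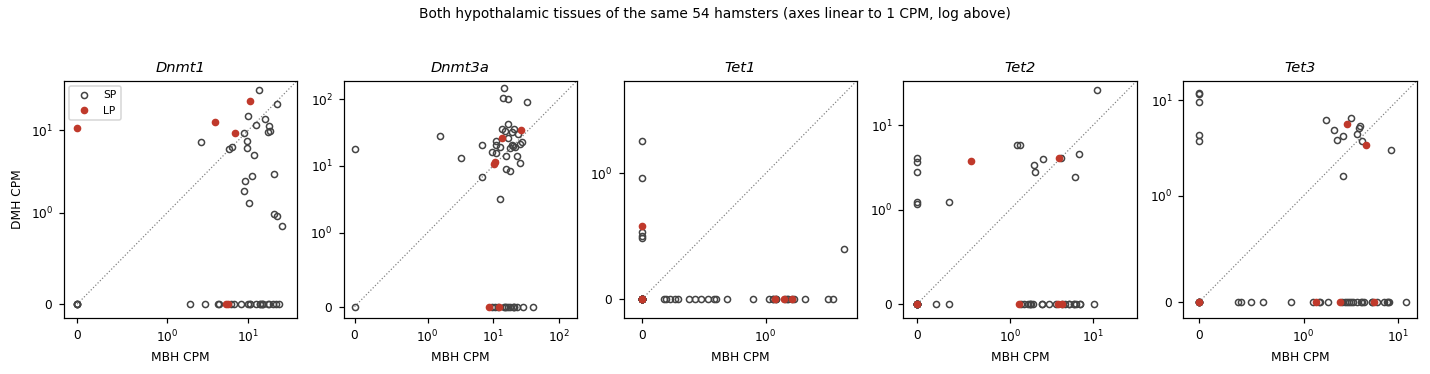
CPM in the DMH (vertical) against the MBH (horizontal) of the same hamster for the 5 genes in both tables, with 1 point per hamster, LP filled and SP open, and the dotted line marking equal values; axes are linear to 1 CPM and logarithmic above. For Dnmt1, 40 of 54 points lie below the line, and for Dnmt3a 26 lie below and 27 above.

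The direction of Dnmt1 over the weeks was opposite by median in the 2 tissues of the same hamsters, and the difference itself was tested. Going from LP to maintenance, the DMH minus MBH difference of Dnmt1 moved by -3.83 ± 1.14 on the log2 scale (unadjusted p = 0.00076, FDR = 0.306), which was not called, and by -2.27 ± 1.14 in induction and -2.36 ± 1.07 in recovery. It lay between -5.79 and -3.05 over 15 alternatives. The FDR was below 0.1 in only 2 of the 15, without replicate 3 (FDR = 0.0663) and without replicate 6 (FDR = 0.0859). It was highest with the quasi-likelihood fit of edgeR 4. Over the 8 SP groups together no member was called (Dnmt1 unadjusted p = 0.035, FDR = 0.639), against 0.61% of all symbols, and the shares by phase were 0.0565% in induction, 0.0622% in maintenance and 0.0452% in recovery. At an unadjusted p under 0.05 there was 1 member, Dnmt1, in each of these 4 tests. Those of the other members by phase lay between -1.19 and +1.65, with standard errors of 0.62 to 5.32.

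Pituitary gland and MBH were compared in the same way over 72732 shared isoform rows and 16993 symbols. The study's text names a direct cDNA kit for the pituitary gland and a PCR-cDNA kit for the hypothalamus, so kit and tissue cannot be told apart. Pituitary minus MBH, Dnmt1 differed by -2.27 ± 0.43 (FDR = 4.47e-07, higher in the MBH in 40 hamsters and in the pituitary gland in 11), Dnmt3a by -1.86 ± 0.38 (FDR = 3.89e-06, 39 and 14) and Tet2 by -1.79 ± 0.52 (FDR = 0.00149, 33 and 8). These 3 members were called lower in the pituitary gland, where 49.8% of all symbols were called lower and 54% in either direction. On simulated counts this fit put unchanged symbols below 0 and called many of them, and far fewer without TMM scaling. A negative difference here is therefore not by itself a lower level in the pituitary gland. Without TMM scaling the differences were -1.62 for Dnmt1 (FDR = 0.00209), -1.20 for Dnmt3a (FDR = 0.00874) and -1.42 for Tet2 (FDR = 0.0537), beside a median of -0.70 for all symbols. With the isoform row of the highest total the difference of Dnmt3a was -0.49 (FDR = 0.118). Tet1 (+0.14 ± 0.66) and Tet3 (-0.41 ± 0.41) were not called, and Tet3 turned to +0.29 without TMM scaling, to +0.43 without the hamster as a block, to +0.55 with the row of the highest total and to +0.10 without replicate 5. Without replicate 2, Tet3 was called at -2.08 (FDR = 0.00215). The median of all symbols was -1.15, so that relative to it Dnmt1 stood at -1.12, Dnmt3a at -0.71, Tet2 at -0.64, Tet3 at +0.73 and Tet1 at +1.29. Going from LP to maintenance, this difference moved by +3.79 ± 1.53 for Tet3 (unadjusted p = 0.0135, FDR = 1) and by -3.45 ± 1.79 for Tet2 (unadjusted p = 0.0537, FDR = 1). No member was called over the 8 SP groups, against 0.406% of all symbols, with 0 at an unadjusted p under 0.05.

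Around the 6 enzymes, 67 genes of the same chemistry were followed: 9 partners of the writers, 10 methyl-CpG readers, 15 genes of base excision and deamination, 6 partners of the erasers, 16 of the methyl donor cycle and 11 that make or use 2-oxoglutarate. Of these, 63 were in the MBH table, 59 in the pituitary, 60 in the PVN and 61 in the DMH. In the MBH none was called over the 9 groups or in a phase, with 5 at an unadjusted p under 0.05 over the 9 groups and none called by DESeq2. The harmonic was called for 1 of the 63, beside 1.71% of all symbols. That gene was Uhrf1, which brings Dnmt1 to newly replicated DNA, on 10 counts in 8 libraries (FDR = 0.00848). Medians of the 10 readers in the MBH were +0.18, +0.10 and +0.21 log2 units over the phases, beside 0 for all symbols.

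In the pituitary gland 8 of 59 were called over the 9 groups, beside 9.56% of all symbols. They were the repair genes Lig3 (a DNA ligase), Neil1 and Smug1 (DNA glycosylases) and Polb (a DNA polymerase), 4 of 12 of their list, with Zbtb24 (1 of 7 writer partners), Ahcyl2 and Mtrr (2 of 13 of the donor cycle) and D2hgdh (1 of 11 of 2-oxoglutarate supply). Ahcyl2, related to the enzyme that breaks down S-adenosylhomocysteine, was read most often, in 25 libraries: its median was 0 CPM in LP (0 to 14.4), 0 at 4 weeks, 16.6 at 8 weeks (0 to 430) and 55.4 at 12 weeks (0 to 206), with FDR = 0.0215. Neil1 was called lower in maintenance (-3.67 ± 0.88, FDR = 0.0476) and recovery (-3.55 ± 0.87, FDR = 0.045) on 3 counts in all. They were 1 count in 1 library each of LP (119 CPM), 16 weeks (4.23 CPM) and 24 weeks (7.86 CPM), so both calls rest on 1 LP library. With a replicate block the FDR was 0.717 in maintenance and 0.46 in recovery. Neil1 was the 1 partner of 59 called in each of these phases, beside 0.44% and 0.623% of all symbols.

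In the DMH 4 of 61 were called over the 9 groups, beside 4.62% of all symbols: Neil1, Lig3, Cdca7 and Mbd6. Neil1, which removes oxidised bases and has been linked to the Tet pathway, was read in 4 of 6 LP libraries, with a median of 0.997 CPM (0 to 5.11), and in none at 12, 16 or 32 weeks. It was lower in maintenance (-4.58 ± 0.88, FDR = 0.0297), with a harmonic at FDR = 0.000366, on 27 counts in 11 libraries. In both tests it was the 1 partner of 61 called, beside 0.898% of all symbols in maintenance and 3.07% for the harmonic. In the PVN none was called over the 9 groups or in a phase, with 3 at an unadjusted p under 0.05 over the 9 groups. The harmonic was called there for 1 of 60, Mbd6 (FDR = 0.0974), beside 0.538% of all symbols. When the highest isoform row alone was counted, none of these partner calls remained in any of the 4 tissues, and DESeq2 called none of the genes named here, though it called 4 partners for the harmonic in the PVN.

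Over the 54 libraries of a tissue the members did not move as a block. Spearman correlations of CPM between members read in at least 27 libraries were -0.14 to 0.40 in the MBH, highest for Dnmt3a with Tet2, 0.10 to 0.34 in the PVN and 0.31 for Dnmt1 with Dnmt3a in the DMH. The libraries share depth and scaling, and many hold 0, so these are descriptions. The symbols most like Dnmt1 in the MBH, of 12039 read in at least 27 libraries, were Amotl1 (0.72), Taok3 (0.66) and Rprd1b (0.63). Those most like Dnmt3a were Adgrl1 (0.56), Ppp2r2a (0.55) and Map4k4 (0.55), like Tet1 Cdk12 (0.53), Naa50 (0.53) and Sypl (0.51), like Tet2 Epb41l1 (0.62), Nsd2 (0.59) and Ylpm1 (0.58), and like Tet3 Slc4a1ap (0.63), Pcdhb17 (0.60) and Inpp4b (0.59). In the DMH those of Dnmt1 were Atp2b3 (0.89), Ighmbp2 (0.88) and Bag6 (0.85), of 7159, and those of Dnmt3a Eif4b (0.67), Rufy3 (0.63) and Cnih4 (0.57). In the PVN, of 10078, they were Tenm3 (0.63), Prkcsh (0.63) and Pdgfa (0.61) for Dnmt1, Kif1a (0.61), LOC100752126 (0.58) and Kif21a (0.58) for Dnmt3a, Resp18, Dlx1 and Itgb1 (0.59 each) for Tet2 and Eif2ak4 (0.60), Smyd2 (0.60) and Ipo9 (0.59) for Tet3. In the pituitary gland, of 4335, Dnmt3a alone was read often enough, and lay nearest to Morf4l1b (0.61), Morf4l1-ps1 (0.58) and Gm5564 (0.58).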

How the data were processed

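RNA was extracted by the authors from brain punches and whole pituitary glands of 54 hamsters and sequenced by nanopore. The authors aligned the reads with Minimap2 to the mouse genome, and the deposited tables hold expected counts per isoform from Salmon, 1 table per tissue, after lowly expressed transcripts had been removed. The annotation behind the PVN table, which shares no isoform identifier with the others, was not given in the sources used here. Here, isoform rows were summed per gene symbol and rounded. Because a read can stand in several rows, a summed count exceeds the reads behind it.

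Tests were made in R 4.3.3 with edgeR 4.0.16, using the quasi-likelihood F-test in the form of edgeR 3, TMM scaling and no filter on low counts, with Benjamini-Hochberg adjustment over all symbols and a threshold of 0.1. Comparisons were the 9 groups, each week and each phase against LP, and a 32-week harmonic. Tissues of the same hamster, matched by the hamster number in the labels, were compared over shared isoforms with the hamster as a block. There the dispersion trend was taken from every 8th symbol in order of abundance. Single values were compared by exact permutation tests of mean CPM. DESeq2 1.42.0, other scalings and filters, isoform choices, a replicate block and leaving out each replicate number were alternatives. On simulated data the unfiltered fits called more unchanged symbols than the threshold allows, in the pituitary gland and DMH above all, and fits after filterByExpr came closer to it. The simulated comparisons of DMH and, above all, pituitary gland with MBH put unchanged symbols below 0 and called many of them, so the median of all symbols is given beside each tissue difference. They used a part of the symbols, a single fixed dispersion and no difference between hamsters, so they do not give the rate of false calls in the data. Totals ranged from 159 to 13208361 counts per library, and every library was kept. The members and gene lists were chosen with earlier results of these data known. The genes named were the members, partners called in a main comparison, and the 3 symbols most similar to each member. Python 3.11.15 with pandas 2.3.3 and scipy 1.17.1 was used for the rest.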

Additional observations from a re-analysis of the deposited data

Results flagged for a closer look

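In 18 of the groups of 6 libraries, 1 library stood apart from the other 5 by Dixon's criterion, where chance gives about 1 in 20 groups. No explanation was tested.

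In the MBH, Dnmt3a stood at 61.1 CPM in 1 LP library, the next at 32.2, and at 0.0 in 1 library at 20 weeks, the next at 37.5. Tet1 had a library at 11.5 CPM at 4 weeks (next 4.09), at 2.44 at 16 weeks (next 0.66) and at 3.9 at 28 weeks (next 1.06). At 8 weeks Tet2 had a library at 16.0 CPM (next 0.462) and Tet3 at 27.3 (next 9.24).

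In the pituitary gland Dnmt3a reached 70.3 CPM in 1 library at 20 weeks (next 12.9). In the PVN Tet2 reached 17.5 CPM at 32 weeks (next 3.96) and Tet3 53.9 at 28 weeks (next 14.5).

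In the DMH both writers had such libraries in several groups. Dnmt1 stood at 8.55 CPM at 8 weeks (next 2.68), 1.03 at 20 weeks (next 0.0), 2.31 at 28 weeks (next 0.67) and 12.6 at 32 weeks (next 1.3). Dnmt3a stood at 77.2 CPM at 8 weeks (next 12.3), 49.2 at 24 weeks (next 8.85), 51.6 at 28 weeks (next 13.4) and 34.8 at 32 weeks (next 5.75). The values at 8, 24 and 28 weeks each rest on 3 counts in the highest isoform row, that at 32 weeks on 5. TMM factors of the DMH libraries ran from 0.09 to 7.9, so such values follow the scaling as well as the counts.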

How the results depend on the processing

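Counts of members called differed with the processing mostly in the pituitary gland, where few reads stand behind a value. Over the 9 groups there, 1 member was called by the unfiltered edgeR test, 4 with the quasi-likelihood fit of edgeR 4 and 4 with a replicate block, but 0 after filterByExpr, with DESeq2 and under both isoform alternatives (the row with the highest total, and the highest row in each library). In a pituitary phase the count was 1, 2 with edgeR 4, and 0 at an FDR below 0.05, after filterByExpr, with DESeq2 and under both isoform alternatives. At single weeks it was 0, 2 with edgeR 4 and 1 with a replicate block. For the pituitary harmonic it was 1, 2 without TMM, and 0 at an FDR below 0.05, after filterByExpr, with DESeq2, with a replicate block and under both isoform alternatives. In the MBH it was 1 over the 9 groups without TMM, and 0 for the harmonic after filterByExpr, with DESeq2 and under both isoform alternatives. Between MBH and DMH 4 members were called, 2 with edgeR 4, 1 after filterByExpr, where 2 could be tested, and 2 with the row of the highest total. Of all symbols, 7751 of 17693 were called lower in the DMH in the main fit and 6812 with edgeR 4. After filterByExpr 3162 of 5280 were called lower there, and with the row of the highest total 5400 of 17693. Between pituitary gland and MBH no member was left to test after filterByExpr. The filterByExpr step removes thinly read genes before testing, so a 0 after it can mean that a member was not tested. Of the 59 pituitary partners in the table, 6 were left after it. The causes were not tested.

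Leaving out each replicate number gave 0 to 1 members for the MBH harmonic, 1 to 3 over the pituitary groups, 0 to 1 in a pituitary phase, 0 to 2 for the pituitary harmonic, 0 to 1 for the DMH harmonic (Tet1 without replicate 1, FDR = 0.0173), 3 to 4 between MBH and DMH, and 3 to 4 between pituitary gland and MBH. In these tissue fits 5925 to 7489 of 17693 symbols were called lower in the DMH and 7322 to 8789 of 16993 lower in the pituitary gland. Pituitary Tet2 in maintenance ranged from -4.35 without replicate 4 to 1.22 without replicate 1, a reversal. MBH Dnmt1 in maintenance lay between 1.04 (replicate block) and 1.79 (without replicate 2), with no FDR under 0.15.

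No label ties the replicate numbers of different groups, so the replicate block is an alternative and not in the main fit. Same-numbered libraries were nevertheless more alike in each tissue. Their median correlations were 0.044 (MBH), 0.05 (pituitary gland), 0.03 (PVN) and 0.074 (DMH), against -0.006, -0.015, -0.006 and -0.019 for different numbers. Of 54 libraries, 32, 36, 29 and 22 correlated best with their own number, though most partners of a library carry another number. What same-numbered libraries share was not tested, and the main fits leave it out. The replicate block moved the counts as given above. Leaving out libraries of fewer than 3000 symbols, chosen after seeing the data, gave 3 members between MBH and DMH in place of 4 and kept each of the other counts of members. Counts over all symbols ranged from 2 to 2531 over the pituitary groups and from 1 to 1943 over the DMH groups across the alternatives, and depth, at a median of 81120 counts in the pituitary gland, limits single genes.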
